A study of Mus musculus with 17 samples.

Results

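The replication-dependent histone genes of mouse were followed in total RNA from cultured lung fibroblasts, as every row of the deposited count table whose gene name starts with Hist1h, Hist2h, Hist3h or Hist4 and that held at least 10 counts in at least 2 of the 17 libraries. Of 70 such rows, 69 met the count rule (Hist1h2aa did not), out of 55421 genes in the table and 22679 genes that met the same rule. The 69 genes comprised 6 linker histone H1 genes, 19 H2A genes, 19 H2B genes, 12 H3 genes and 13 H4 genes. On GRCm38, 55 of them lie on chromosome 13, 10 on chromosome 3, 3 on chromosome 11 and 1 on chromosome 6. GENCODE annotates 66 of the 69 as protein coding and calls Hist1h2aj, Hist1h2al and Hist3h2bb-ps pseudogenes.

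All mice carried Ephb4 f/f and Col1a2-CreERT2, a tamoxifen-inducible Cre driven by a promoter of collagen-producing cells, on a C57BL/6J background. Ephb4 CKO mice were injected with 4-hydroxytamoxifen at 1 mg per day for 5 days from an age of 4 weeks, and Ephb4 control mice of the same genotype were injected with corn oil. At 6 weeks the mice received bleomycin into the airway at 1.2 U/kg, an injury that is followed by fibrosis, or PBS, and tissue was harvested on day 14. There were 17 libraries from as many mice: 4 Ephb4 control PBS, 4 Ephb4 control bleomycin, 5 Ephb4 CKO PBS and 4 Ephb4 CKO bleomycin. By label each group held mice of both sexes, in unequal numbers in the PBS groups. The cells were grown in serum and passaged before RNA was taken, so that the RNA comes from a culture. How far each culture was dividing was not measured directly. Only cells that express Col1a2 can delete Ephb4 in this model.

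Replication-dependent histones supply the nucleosomes of newly copied DNA, and their genes are switched on as cells enter S phase. Their mRNAs are the animal mRNAs that end in a conserved stem-loop and not in a poly(A) tail. The stem-loop-binding protein holds the loop, the U7 snRNP directs the cut just after it, and the mRNA is degraded when DNA synthesis stops. Sequencing of total RNA depleted of ribosomal RNA keeps these mRNAs, which capture on oligo(dT) would mostly lose. Some histone genes can also give polyadenylated transcripts in cells that have left the cycle, Hist1h1c, Hist1h2bc and Hist2h2be among them.

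The stem-loop was searched in the annotated transcripts as a stem of 6 base pairs around a loop of 4 bases, after the stop codon. It was found in 46 of 69 genes, between 21 and 58 bases after the stop codon: in 4 of 6 H1 genes, 11 of 19 H2A genes, 10 of 19 H2B genes, 9 of 12 H3 genes and 12 of 13 H4 genes. The loops of 7 genes are given here because they show the shared end of these mRNAs, with the 16 bases of stem and loop in capitals and 5 flanking bases on each side.

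Hist1h1c: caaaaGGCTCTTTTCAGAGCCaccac
Hist3h2a: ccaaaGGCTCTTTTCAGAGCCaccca
Hist1h3b: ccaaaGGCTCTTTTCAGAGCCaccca
Hist1h2bb: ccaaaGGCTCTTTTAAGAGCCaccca
Hist2h2ac: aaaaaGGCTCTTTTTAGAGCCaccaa
Hist1h4h: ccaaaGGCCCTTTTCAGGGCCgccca
Hist1h4j: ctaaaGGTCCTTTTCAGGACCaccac

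On GRCm38 the capitals lie at chr13:23739512-23739527 for Hist1h1c, chr11:58955172-58955187 for Hist3h2a, chr13:23752820-23752835 for Hist1h3b, chr13:23747203-23747218 for Hist1h2bb, chr13:23531458-23531473 for Hist1h4h and chr13:21735437-21735452 for Hist1h4j, all on the plus strand, and at chr3:96220418-96220433 on the minus strand for Hist2h2ac. All lie after the stop codon, in the annotated 3′ UTR. The sequence shown for Hist1h1c, Hist3h2a and Hist1h3b was shared by 26 genes of the classes H1, H2A, H2B and H3, and that of Hist1h2bb by 6 genes. H4 genes carried another stem: the capitals of Hist1h4h were shared by 7 H4 genes and those of Hist1h4j by 2. Of the 23 genes without a match, 16 have an annotated model that ends under 60 bases past the stop codon, and 3 have no annotated coding sequence. The other 4, Hist1h2bc, Hist1h2bq, Hist1h2br and Hist2h2be, have models that run over 60 bases past it without these letters.

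Promoters of 61 of the 69 genes were matched in RefSeq (GRCm38.p6), as the 250 bases before and 50 bases after the annotated start. They were searched on both strands for TATAAA (the TATA box), CCAAT, ATTTGCAT (the octamer of H2B promoters) and AAACACA (an H1 promoter element). TATAAA stood in 34 of 61 histone promoters (55.7%) and in 14.2% of 27025 mouse promoters of the same length. CCAAT stood in 52 of 61 (85.2%) against 37.9%, in every matched promoter of the classes H1, H2A, H2B and H3 but in 3 of 12 H4 promoters (25%). The octamer stood in 6 of 17 H2A and 6 of 16 H2B promoters and in no H1, H3 or H4 promoter, against 1.75% of all promoters. AAACACA stood in 5 of 6 H1 promoters against 7.14%. The window of Hist1h2ae (chr13:23571171-23571470) reaches into the H2B gene Hist1h2bg, which starts at 23571396 on the other strand. With both strands searched, the same site can be counted for both genes of such a pair, so the H2A and H2B counts are not independent. A match of letters is a description and not a site of binding. The promoters of Hist1h2bb (chr13:23746484-23746783), Hist1h1c (chr13:23738557-23738856) and Hist1h4h (chr13:23530794-23531093), all on the plus strand, are given because they show an H2B promoter with 3 of the 4 motifs, an H1 promoter and an H4 promoter with none, with motif matches in capitals.

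Hist1h2bb: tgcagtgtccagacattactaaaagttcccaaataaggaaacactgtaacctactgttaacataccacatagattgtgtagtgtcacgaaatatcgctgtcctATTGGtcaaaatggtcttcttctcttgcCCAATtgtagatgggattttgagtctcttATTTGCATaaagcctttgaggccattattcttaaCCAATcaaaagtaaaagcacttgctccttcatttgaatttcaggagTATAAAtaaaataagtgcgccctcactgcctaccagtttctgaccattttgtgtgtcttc
Hist1h1c: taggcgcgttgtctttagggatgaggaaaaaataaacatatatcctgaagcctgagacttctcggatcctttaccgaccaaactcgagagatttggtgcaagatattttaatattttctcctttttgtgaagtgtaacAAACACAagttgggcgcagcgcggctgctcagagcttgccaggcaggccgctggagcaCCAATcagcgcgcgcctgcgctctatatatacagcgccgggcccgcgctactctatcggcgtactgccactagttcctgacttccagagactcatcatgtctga
Hist1h4h: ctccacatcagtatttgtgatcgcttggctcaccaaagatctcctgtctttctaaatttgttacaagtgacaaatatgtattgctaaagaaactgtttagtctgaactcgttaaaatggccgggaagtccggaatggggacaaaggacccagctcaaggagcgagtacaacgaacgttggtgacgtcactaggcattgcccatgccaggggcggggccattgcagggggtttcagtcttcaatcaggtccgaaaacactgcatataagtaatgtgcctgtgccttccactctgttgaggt

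The libraries held 66540022 to 120554468 counts, of which the 69 genes took 0.0378% to 0.416%. Levels are counts relative to a library's total, scaled to a fixed sum (CPM), with TMM library sizes, as mean ± SD over the mice of a group, and fold changes are edgeR quasi-likelihood estimates on the log2 scale ± SE, adjusted by Benjamini-Hochberg over all 22679 genes. Ephb4 itself lay at 2.34 to 33.0 CPM in Ephb4 control PBS, 3.90 to 23.0 CPM in Ephb4 CKO PBS, 13.5 to 65.5 CPM in Ephb4 control bleomycin and 4.99 to 14.4 CPM in Ephb4 CKO bleomycin. The genotype difference did not pass the adjusted threshold of 0.05 after PBS (log2 fold change -0.72, adjusted p = 1) or after bleomycin (log2 fold change -2.00, adjusted p = 0.314). The macrophage gene Lyz2 lay between 867 and 35926 CPM, while Col1a1, the main fibroblast collagen, fell to 0.363 CPM in the lowest library, so that the cell label is not borne out by fibroblast markers in every library. Xist and Y-linked counts went against the labelled sex in 3 libraries. In bulk RNA, fewer cells in S phase and less histone mRNA per cell cannot be told apart.

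Histone genes also share sequence, which limits how far single genes can be told apart. Of the 69 genes, 62 had at least 1 stretch of 75 bases, the read length, that another of the 69 also held, and in 28 genes over 50% of all such stretches were shared. All stretches of Hist2h2aa2 (100%) were shared, mostly with Hist2h2aa1, and Hist2h2aa1 was at 0 counts in Ephb4 control PBS 4 while Hist2h2aa2 was at 12.2 CPM there, so the split between this pair is uncertain. Hist1h2be overlaps Hist1h1e on the same strand, as Hist3h2a does Trim17.

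The histone genes rose and fell together across the 17 libraries. The summed level of the 69 genes was 1045, 1643, 1353 and 575 CPM in the 4 Ephb4 control PBS libraries. It was 2620, 1151, 1295 and 1777 CPM in Ephb4 control bleomycin. In Ephb4 CKO PBS it was 528, 649, 3790, 858 and 1006 CPM, and in Ephb4 CKO bleomycin 823, 620, 3087 and 890 CPM. All 4 groups overlapped, and 1 library in each Ephb4 CKO group stood far above the others of its group. These libraries, Ephb4 CKO PBS 3 and Ephb4 CKO bleomycin 3, come from mice with consecutive numbers and the same labelled sex. The same holds for Ephb4 CKO PBS 5 and Ephb4 CKO bleomycin 4, which lay at 1006 and 890 CPM. The labels do not say what the numbers mark. The highest library, Ephb4 CKO PBS 3, was 7.18 times the lowest, Ephb4 CKO PBS 1. Group means were 1153.9 ± 457 CPM (SD, n = 4), 1711 ± 662 CPM (n = 4), 1366 ± 1367 CPM (n = 5) and 1355 ± 1160 CPM (n = 4) in that order.

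**Figure D1:**
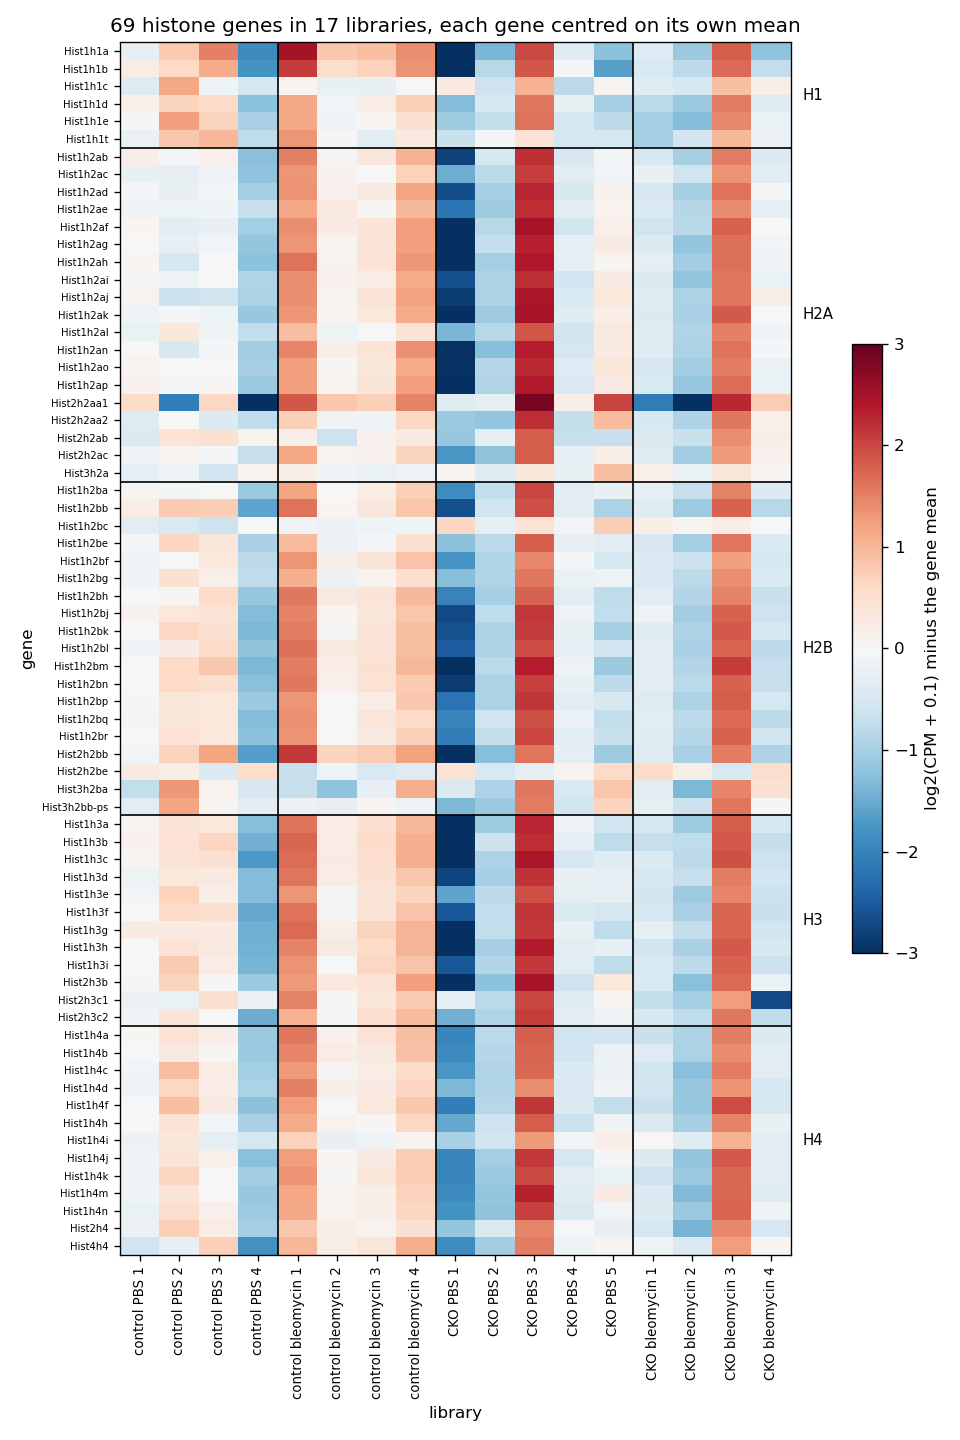
Log2(CPM + 0.1) of each of the 69 histone genes (rows, by class) in each of the 17 libraries (columns, by group), minus the gene's mean over libraries, with red above and blue below the mean. Ephb4 CKO PBS 3 is red in nearly every row and Ephb4 CKO PBS 1 blue, while Hist1h2bc, Hist2h2be and Hist3h2a stay near white.

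Of the 69 genes, 59 were highest in Ephb4 CKO PBS 3 and 5 in Ephb4 control bleomycin 1, and 57 were lowest in Ephb4 CKO PBS 1. Over the 66 genes with more than 3 counts in every library, the highest library was a median of 20.5 times the lowest, and 53 genes spanned over 10-fold. The log2 CPM of a gene and the mean log2 CPM of the other 68 had a median Pearson r of 0.97 over 17 libraries, and 57 of 69 genes had an r over 0.9. These correlations describe the same libraries and partly the same reads. Of the 7 genes that share no stretch of 75 bases with another of the 69, Hist1h1a (r 0.93), Hist1h1b (0.92), Hist2h2bb (0.93), Hist2h4 (0.94) and Hist4h4 (0.92) had an r over 0.9 but under the median of the 69. Hist1h1t (0.72) and Hist2h2be (-0.64) lay lower still. The part of shared reads in these correlations was not tested.

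Of the class sums, H3 spanned the widest range. Summed H3 genes ranged from 25.9 CPM in Ephb4 CKO PBS 1 to 581 CPM in Ephb4 CKO PBS 3, a ratio of 22.4. The same ratio of highest to lowest library was 11.2 for H2A, 10.9 for H4, 5.73 for H2B and 5.12 for H1, a class in which single genes spanned from 3.80-fold (Hist1h1c) to 88.8-fold (Hist1h1a). H3 made up 4.92% to 15.3% of the summed level of all 69 genes, and H1 20.1% to 37.7%, with H1 at its largest share in Ephb4 CKO PBS 1 and at its smallest in Ephb4 CKO PBS 3. Per kilobase of annotated exon, the most abundant genes were Hist1h4h at 84.7 ± 60.6 CPM per kb (SD, n = 17 libraries), Hist1h1c at 82.9 ± 38.1 and Hist1h4f at 82.8 ± 73.0, which do not differ beyond their spread. The least abundant were Hist1h1t, the testis linker histone, at 0.160 ± 0.142 CPM per kb and Hist3h2ba at 0.347 ± 0.356. This ranking depends on the length of the annotated models, some of which run far past the loop. Hist1h4d had a mean of 67.5 CPM against 39.8 CPM for Hist1h4h. It stood at 59.3 CPM per kb, with 770 of its 1138 exonic bases past the loop.

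**Figure D2:**
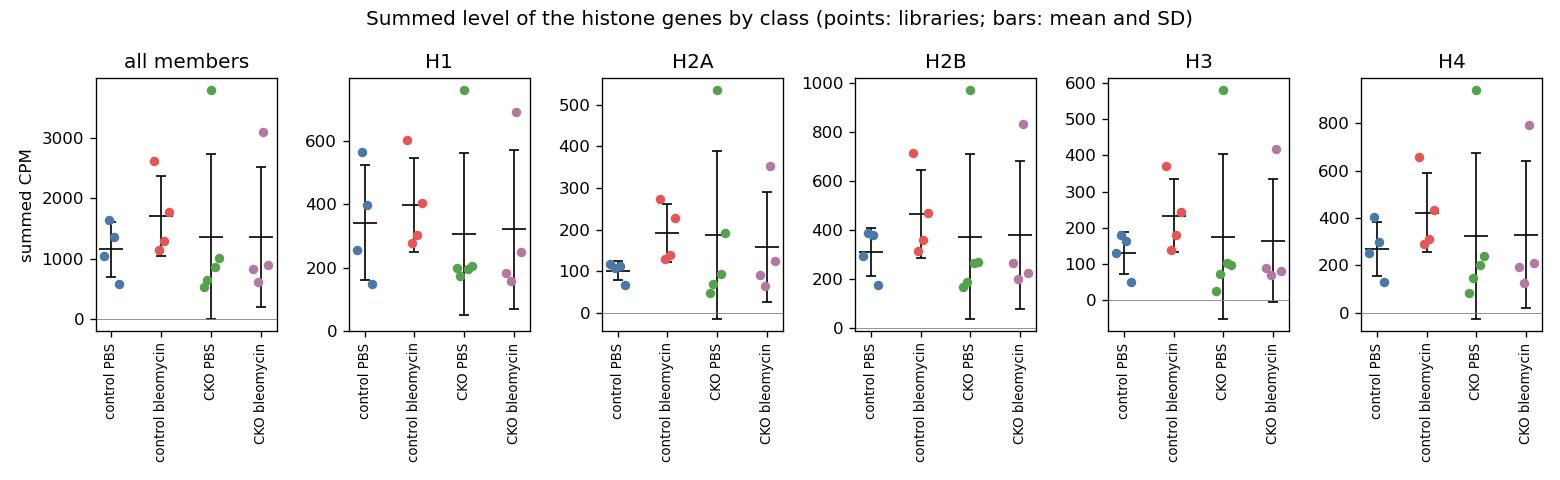
Summed CPM of all 69 histone genes and of each class in the 4 groups, with 1 point per library and bars for the mean and SD. In each panel 1 Ephb4 CKO PBS library and 1 Ephb4 CKO bleomycin library lie far above the rest of their group, and the H2A panel is the only one in which Ephb4 control bleomycin (129.5 to 273 CPM) lies wholly above Ephb4 control PBS (68.5 to 117 CPM).

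Among the H1 genes, Hist1h1a and Hist1h1b, linker histones of dividing cells, had the widest spans, 88.8-fold and 67.5-fold between libraries. Hist1h1b lay at 25.5, 33.2, 47.3 and 6.26 CPM in Ephb4 control PBS and at 94.8, 31.7, 35.2 and 56.1 CPM in Ephb4 control bleomycin. It lay at 1.40, 12.4, 80.0, 20.9 and 7.06 CPM in Ephb4 CKO PBS and at 16.0, 12.6, 70.8 and 13.2 CPM in Ephb4 CKO bleomycin. The groups overlapped throughout. Hist1h1c, the linker histone also made outside S phase, spanned 3.80-fold, from 69.7 CPM in Ephb4 CKO PBS 4 to 265 CPM in Ephb4 control PBS 2. The makeup of the H1 class differed between libraries, and Hist1h1c held 73.6% of H1 counts in Ephb4 CKO PBS 1 (Wilson 95% interval 72.9% to 74.3%) and 20.7% in Ephb4 control bleomycin 1 (20.4% to 21.0%). These intervals cover counting error only.

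The makeup of the H2B class differed likewise. Hist1h2bb, an H2B gene with both the loop and the octamer, lay at 27.5, 40.8, 39.7 and 7.81 CPM in Ephb4 control PBS and at 73.9, 24.6, 30.2 and 42.0 CPM in Ephb4 control bleomycin. In Ephb4 CKO PBS it lay at 3.73, 16.2, 90.9, 18.7 and 12.3 CPM, and in Ephb4 CKO bleomycin at 18.4, 11.2, 81.3 and 13.2 CPM. Hist1h2bc hardly followed: it lay at 56.9, 51.6, 46.2 and 71.0 CPM in Ephb4 control PBS, at 66.3, 63.2, 64.4 and 64.7 CPM in Ephb4 control bleomycin, at 112, 58.9, 95.0, 67.2 and 119 CPM in Ephb4 CKO PBS, and at 81.3, 75.7, 81.3 and 70.1 CPM in Ephb4 CKO bleomycin. Its share of H2B counts ran from 65.8% (65.0% to 66.6%) in Ephb4 CKO PBS 1 to 9.27% (9.08% to 9.47%) in Ephb4 control bleomycin 1. Its r with the other 68 genes was -0.15.

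Hist2h2be, which like Hist1h2bc has a long model without the loop letters, ran against the rest, with an r of -0.64 to the other 68 genes and -0.68 to the mean of 25 S phase genes. It lay at 4.09, 3.81, 2.48 and 4.89 CPM in Ephb4 control PBS, at 2.04, 3.01, 2.42 and 2.53 CPM in Ephb4 control bleomycin, at 4.56, 2.41, 2.74, 3.64 and 5.05 CPM in Ephb4 CKO PBS, and at 4.95, 3.83, 2.43 and 4.90 CPM in Ephb4 CKO bleomycin. The lowest of its libraries, Ephb4 control bleomycin 1, was among the 3 highest for the summed level. Its r was 0.64 with the macrophage markers and -0.62 with the fibroblast markers. The other 2 long models without the loop letters, Hist1h2bq (r 0.98) and Hist1h2br (r 0.99), followed the other genes, and 96.1% of the stretches of Hist1h2bq are shared with other histone genes. Hist3h2a, an H2A gene on chromosome 11, has the loop, in a model that runs 1643 bases past it. This gene spanned only 2.82-fold (11.99 to 33.8 CPM) and had an r of 0.21. Hist1h1d, whose model runs 4884 bases past its loop, had an r of 0.93. The 46 genes with the loop letters had r from 0.21 to 0.99, with a median of 0.97. The 16 genes without a match whose models end under 60 bases past the stop codon had r from 0.80 to 0.99, also with a median of 0.97.

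All 13 H4 genes followed the other histone genes with an r of at least 0.92, and the 12 H3 genes with an r of 0.69 (Hist2h3c1) to 0.99. Hist1h3b lay at 15.2, 18.5, 21.6 and 4.97 CPM in Ephb4 control PBS and at 46.3, 16.1, 20.2 and 28.7 CPM in Ephb4 control bleomycin. It lay at 1.06, 8.81, 64.8, 11.6 and 8.07 CPM in Ephb4 CKO PBS and at 8.49, 8.10, 49.6 and 8.30 CPM in Ephb4 CKO bleomycin, so that 1 library of each Ephb4 CKO group carried the high values. Hist1h4h had a narrower span of 10.3-fold (11.3 to 117 CPM). Hist1h2ba, the testis H2B gene, lay at 0.165 to 3.74 CPM and followed the other genes with an r of 0.99, with 33.2% of its stretches shared.

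**Figure D3:**
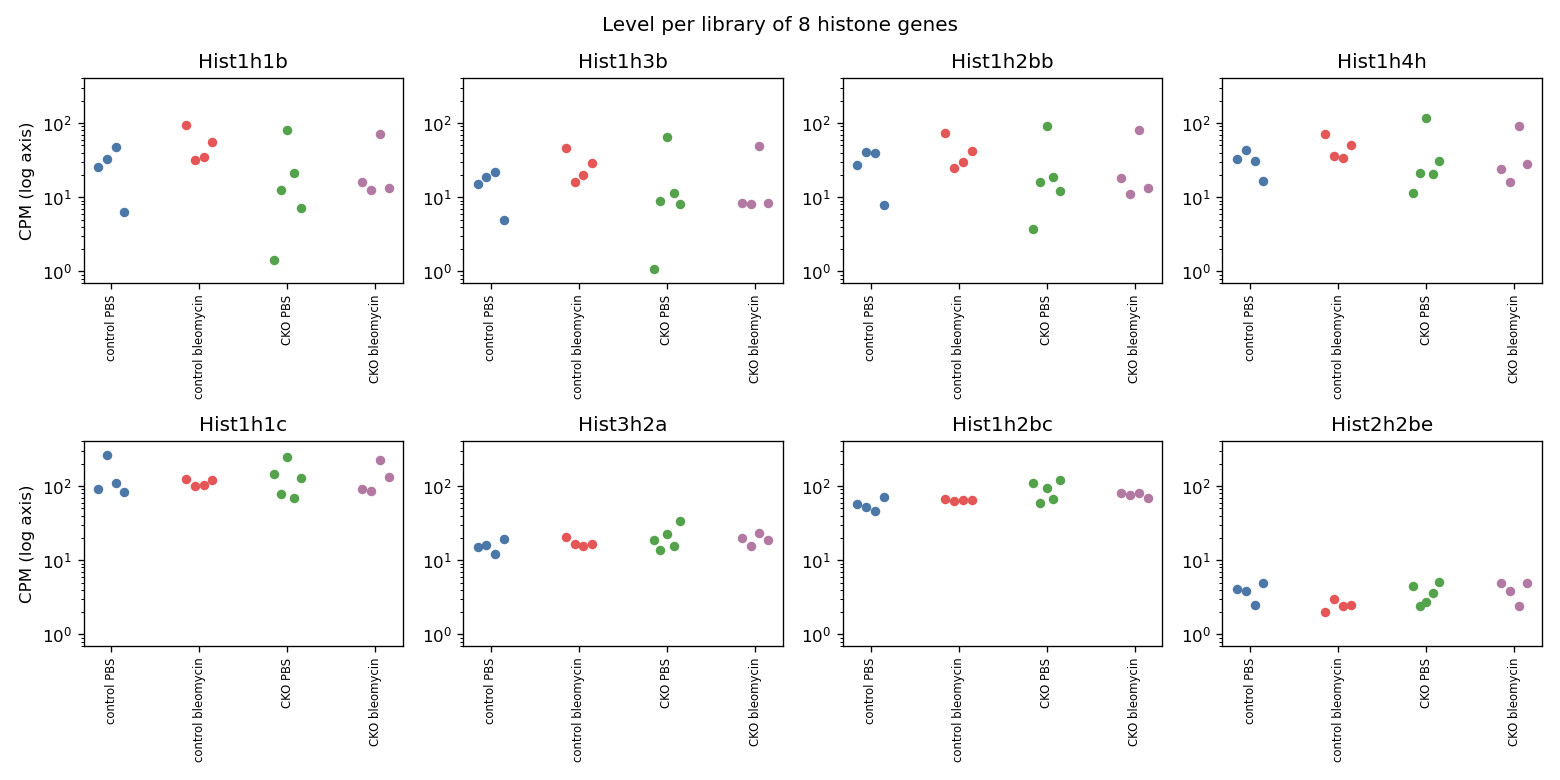
CPM per library, on a log axis, of 4 histone genes that followed the summed level (Hist1h1b, Hist1h3b, Hist1h2bb, Hist1h4h) and 4 that followed it less or not (Hist1h1c, Hist3h2a, Hist1h2bc, Hist2h2be), with 1 point per library in the 4 groups. The upper genes span 10.3-fold (Hist1h4h) to 67.5-fold (Hist1h1b), and the lower ones 2.48-fold (Hist2h2be) to 3.80-fold (Hist1h1c).

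The histone genes were set beside genes of the cell cycle. The mean log2 CPM of the 69 genes had a Pearson r of 0.78 and a Spearman rho of 0.64 with the mean of 25 S phase genes over 17 libraries, and of 0.80 and 0.84 with 18 G2 and mitosis genes. Without the 2 libraries farthest from the median of the S phase genes, r was 0.62. On deviations from the group means it was 0.75, within the 8 libraries of mice numbered in the 11 series 0.62 and within the 9 of the 12 series 0.91. The genes listed as replication-independent histone variants, among them H2afz, H3f3a, H2afx and Cenpa, had an r of 0.74 with the histone genes. Histone chaperones had an r of 0.74, genes of histone mRNA transcription and processing 0.51, and cell cycle inhibitors 0.30. Whether each listed variant is independent of the cycle was not tested. All these scores come from the same libraries and share their depth and makeup, and no p is given.

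Cell type markers were correlated with the histone level to differing degrees. The r of the histone mean was 0.62 with 7 epithelial markers, 0.54 with 3 mesothelial markers, 0.49 with 12 fibroblast markers, 0.34 with 5 smooth muscle markers, 0.20 with lymphocyte markers, -0.10 with endothelial markers, -0.25 with 19 macrophage markers and -0.27 with neutrophil markers. On deviations from the group means it was 0.72 for epithelial, 0.49 for lymphocyte, 0.44 for mesothelial, 0.37 for fibroblast, 0.13 for smooth muscle, -0.08 for neutrophil, -0.11 for macrophage and -0.18 for endothelial markers. Without the 2 libraries farthest from each list's median it was 0.48 for mesothelial, 0.45 for fibroblast, 0.44 for epithelial and 0.32 for smooth muscle. It was then 0.23 for lymphocyte, 0.21 for neutrophil, 0.15 for endothelial and 0.07 for macrophage markers, so the negative signs did not hold. Within the 11 and 12 series it was 0.31 and -0.84 for neutrophil, 0.38 and -0.50 for lymphocyte and 0.03 and -0.17 for endothelial markers. Each other list kept its sign. The mean log2 CPM of the fibroblast markers ranged from -1.20 to 6.31 in Ephb4 control PBS, 6.15 to 7.07 in Ephb4 control bleomycin, -0.94 to 4.64 in Ephb4 CKO PBS and -0.88 to 4.97 in Ephb4 CKO bleomycin. That of the macrophage markers ranged from 6.85 to 8.59, 3.74 to 8.02, 7.41 to 9.41 and 7.88 to 8.62 in the same order. All 12 fibroblast and 19 macrophage markers passed the count rule, and Tcf21 was at 0 in 3 libraries. The epithelial markers ranged from 3.37 to 7.03, 3.50 to 6.59, 1.76 to 6.42 and 0.09 to 7.03. The part of this cell makeup in the histone level was not tested.

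The order of columns in the deposited table also moved with the histone level. The columns fall into 2 alphabetically sorted runs, of 8 and 9 libraries, and each run holds libraries of all 4 groups. Within Ephb4 control PBS the libraries of the first run lay at 1353 to 1643 CPM and those of the last at 575 to 1045 CPM. Within Ephb4 CKO PBS they lay at 1006 to 3790 and 528 to 858 CPM, and within Ephb4 CKO bleomycin at 890 to 3087 and 620 to 823 CPM. Ephb4 control bleomycin overlapped, with 1151 to 1777 and 1295 to 2620 CPM. With the run as a term beside the groups, an alternative chosen after seeing the data, 68 of 69 histone genes were higher in the first run, with a median log2 difference of 1.18 against 0.04 over all genes. At an unadjusted p under 0.05 by edgeR stood 51 of the 69, against 12.2% of all genes, and none of the 69 passed the adjusted threshold (smallest adjusted p = 0.143), against 0.198% of all genes. Hist1h2bc (0.01 ± 0.15) and Hist2h2be (-0.07 ± 0.21) did not differ between the runs beyond their error. Hist1h1c was higher in the first run (0.76 ± 0.24, edgeR unadjusted p = 0.0071, adjusted p = 0.197). The 25 S phase genes had a median of 0.13. All 18 G2 and mitosis genes were also higher in the first run (median 0.65), as were 10 of 11 replication-independent variants (median 0.40), with no gene of these 3 lists at an unadjusted p under 0.05. The 106 other protein-coding genes of at most 600 exonic bases had a median of 0.05, with 61 of them higher in the first run. The study's own model held a batch number, but the batch of each library, and what the runs stand for, are not given in the sources used here. The main model here has no batch term, and the part of the runs in the histone level was not tested.

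**Figure D4:**
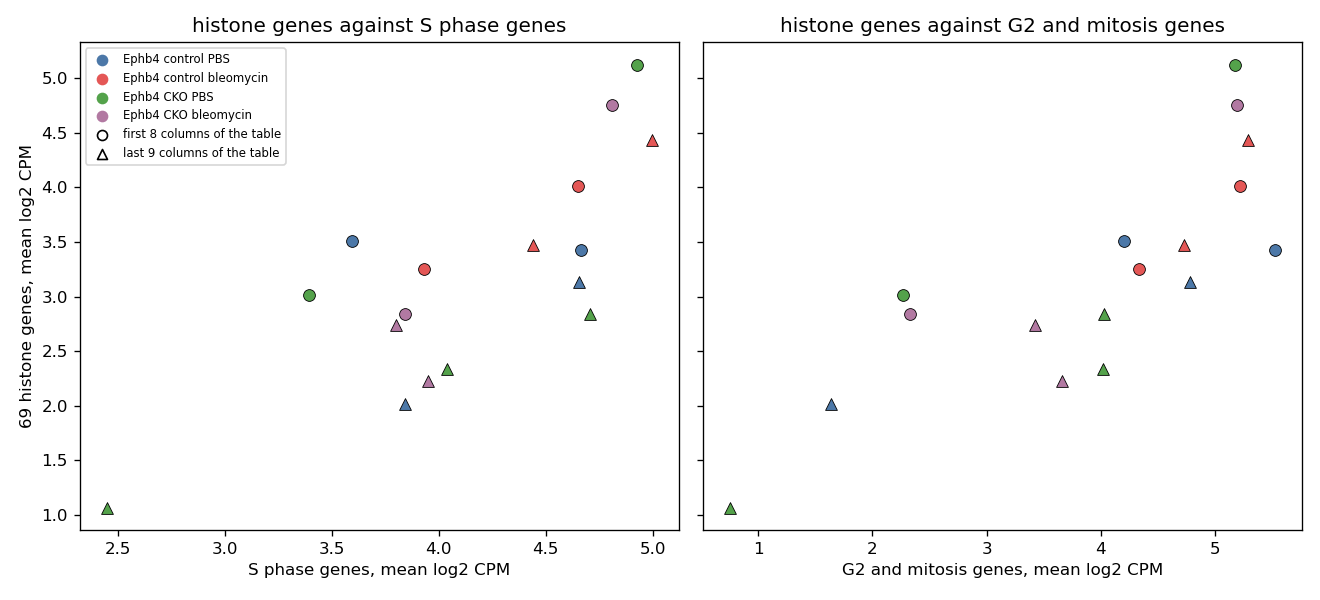
Mean log2 CPM of the 69 histone genes (vertical) against the mean log2 CPM of the S phase genes (left) and of the G2 and mitosis genes (right), 1 point per library, coloured by group, with circles for the 8 libraries of the first run of columns and triangles for the 9 of the last. The points rise from lower left to upper right (Pearson r 0.78 and 0.80). The histone mean minus the S phase mean lies at -1.24 to 0.20 for the circles and at -1.86 to -0.56 for the triangles.

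The first comparison asked whether bleomycin changed histone mRNA in Ephb4 control mice. Of the 69 genes, 64 had a higher estimate after bleomycin, and the median log2 fold change was 0.77 against -0.07 over all genes, and none passed the adjusted threshold (smallest adjusted p = 0.454, edgeR). None of the 22679 genes did (0%, smallest adjusted p = 0.289). None of the 69 stood at an unadjusted p under 0.05, against 11.5% of all genes. By class the median was 1.03 for H2A, 0.88 for H3, 0.72 for H4, 0.69 for H2B and 0.24 for H1. In 11 of 69 genes (15.9%), all H2A genes, each bleomycin library lay above each PBS library, against 7.69% of all genes with groups that do not overlap. Hist1h2ah, for example, lay at 4.70, 3.16, 4.51 and 1.89 CPM after PBS and at 14.2, 4.93, 6.08 and 11.4 CPM after bleomycin (log2 fold change 1.36 ± 0.89, adjusted p = 0.555). These 11 genes share sequence and are not independent, and they include Hist2h2aa1, whose split from Hist2h2aa2 is uncertain. Hist2h2be differed most by p in the other direction (-0.61 ± 0.30, unadjusted p = 0.061, adjusted p = 0.454).

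Mouse number series is tied to this comparison: all 4 Ephb4 control bleomycin mice are numbered in the 12 series and 3 of the 4 Ephb4 control PBS mice in the 11 series. Within the 12 series the single PBS library lay at 1045 CPM of summed histone level, below each of the 4 bleomycin libraries (1151 to 2620 CPM). With the series as a covariate the median of the 69 genes was 1.71, and 36 of 69 stood at an unadjusted p under 0.05 against 4.95% of all genes, with none past the adjusted threshold (smallest adjusted p = 0.898). That fit takes the series difference largely from the Ephb4 CKO mice, whose 11 series libraries (858 to 3790 CPM after PBS, 890 to 3087 CPM after bleomycin) lay above those of the 12 series (528 to 649 and 620 to 823 CPM). Series and treatment cannot be told apart in Ephb4 control mice beyond this.

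The lists related to the cell cycle are given beside this, with no test between lists. Of 25 S phase genes 18 had a higher estimate after bleomycin (median log2 fold change 0.31), of 18 G2 and mitosis genes 15 (0.32) and of 14 histone chaperones 10 (0.11), none past the adjusted threshold. Tyms, the thymidylate synthase, had a log2 fold change of 1.25 ± 0.53 (unadjusted p = 0.032, adjusted p = 0.410). Among 14 genes of histone mRNA transcription and processing 8 were higher, with Lsm11, a U7 snRNP protein, at 0.51 ± 0.22 (unadjusted p = 0.033, adjusted p = 0.410). Of the replication-independent variants 9 of 11 were higher (median 0.22).

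The second comparison asked whether Ephb4 CKO cells differed from control cells after PBS. Of the 69 genes 59 had a higher estimate in Ephb4 CKO, with a median log2 fold change of 0.37 against -0.04 over all genes, and none passed the adjusted threshold (smallest adjusted p = 1, also over all 22679 genes, 0%). This median rests on Ephb4 CKO PBS 3: without that library it was -0.67. By class it was 0.85 for H2A, 0.51 for H3, 0.32 for H4, 0.23 for H2B and -0.27 for H1, with all 6 H1 genes lower. Hist1h2bc alone stood at an unadjusted p under 0.05, which 2.47% of all genes did, with 56.4 ± 10.6 CPM (SD, n = 4) in control and 90.4 ± 26.6 CPM (n = 5) in Ephb4 CKO (log2 fold change 0.68 ± 0.20, unadjusted p = 0.0036, adjusted p = 1). In none of the 69 genes were the groups apart, against 0.34% of all genes. Of the S phase genes 20 of 25 had a lower estimate (median -0.11), as had all 18 G2 and mitosis genes (median -0.75), and none of them passed the adjusted threshold. The difference between these lists and the histone genes was not tested.

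The third comparison asked whether Ephb4 CKO cells differed from control cells after bleomycin. Of the 69 genes 60 had a lower estimate in Ephb4 CKO, with a median log2 fold change of -0.40 against -0.0005 over all genes, and none passed the adjusted threshold (smallest adjusted p = 0.321, with 0.312 the smallest over all genes, 0%). Without Ephb4 CKO bleomycin 3 the median was -1.35, and without Ephb4 control bleomycin 1 it was -0.09. The direction turned, to a median of 0.04, without the 3 libraries whose sex genes go against their labels, all of which are bleomycin libraries of this comparison. By class it was -0.53 for H1, -0.49 for H3, -0.44 for H2A, -0.30 for H2B and -0.25 for H4. Hist2h2be alone stood at an unadjusted p under 0.05, which 14.8% of all genes did, and it was higher in Ephb4 CKO (4.03 ± 1.18 against 2.50 ± 0.40 CPM, SD, n = 4 each, log2 fold change 0.69 ± 0.30, unadjusted p = 0.037, adjusted p = 0.321). In Hist1h2bc every Ephb4 CKO library (70.1 to 81.3 CPM) lay above every control library (63.2 to 66.3 CPM), the only 1 of 69 genes with groups apart, against 16.9% of all genes (log2 fold change 0.25 ± 0.21, adjusted p = 0.541). Hist1h1a (-1.20 ± 1.03) and Hist2h2bb (-1.08 ± 0.86) had the lowest fold changes. With number series as a covariate the median was -1.35, and 5 of 69 stood at an unadjusted p under 0.05 against 10.1% of all genes.

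Of the lists in this comparison, 20 of 25 S phase genes were lower (median -0.45) and all 18 G2 and mitosis genes (median -0.94), none past the adjusted threshold. Tyms was at -1.72 ± 0.53 (unadjusted p = 0.0058, adjusted p = 0.312) while Pcna, the sliding clamp of DNA polymerase, was at 0.65 ± 0.25 (unadjusted p = 0.019, adjusted p = 0.314). Lsm11 was at -0.68 ± 0.22 (adjusted p = 0.312), and the chaperone gene Ssrp1, a FACT subunit, at -0.49 ± 0.18 (adjusted p = 0.314). This comparison and the first share the Ephb4 control bleomycin libraries, so their opposite signs are not independent.

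After bleomycin against PBS in Ephb4 CKO mice, 36 of 69 genes were higher and 33 lower, with a median log2 fold change of 0.01. None passed the adjusted threshold (smallest adjusted p = 1, 0% of all genes), none stood at an unadjusted p under 0.05 (1.81% of all genes), and in none were the groups apart (0.225% of all genes). This median also rests on 1 library on each side: without Ephb4 CKO PBS 3 it was 1.09, and without Ephb4 CKO bleomycin 3 it was -0.98. For the interaction of genotype and bleomycin, 62 of 69 genes had a negative estimate, with a median of -0.77 against 0.004 over all genes. None passed the adjusted threshold (smallest adjusted p = 0.987, 0% of all genes) or stood at an unadjusted p under 0.05 (3.61% of all genes), and without Ephb4 CKO PBS 3 the median was 0.34. The median SE of the 69 log2 fold changes lay between 0.76 and 0.80 in the comparisons of 2 groups and was 1.10 for the interaction.

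**Figure D5:**
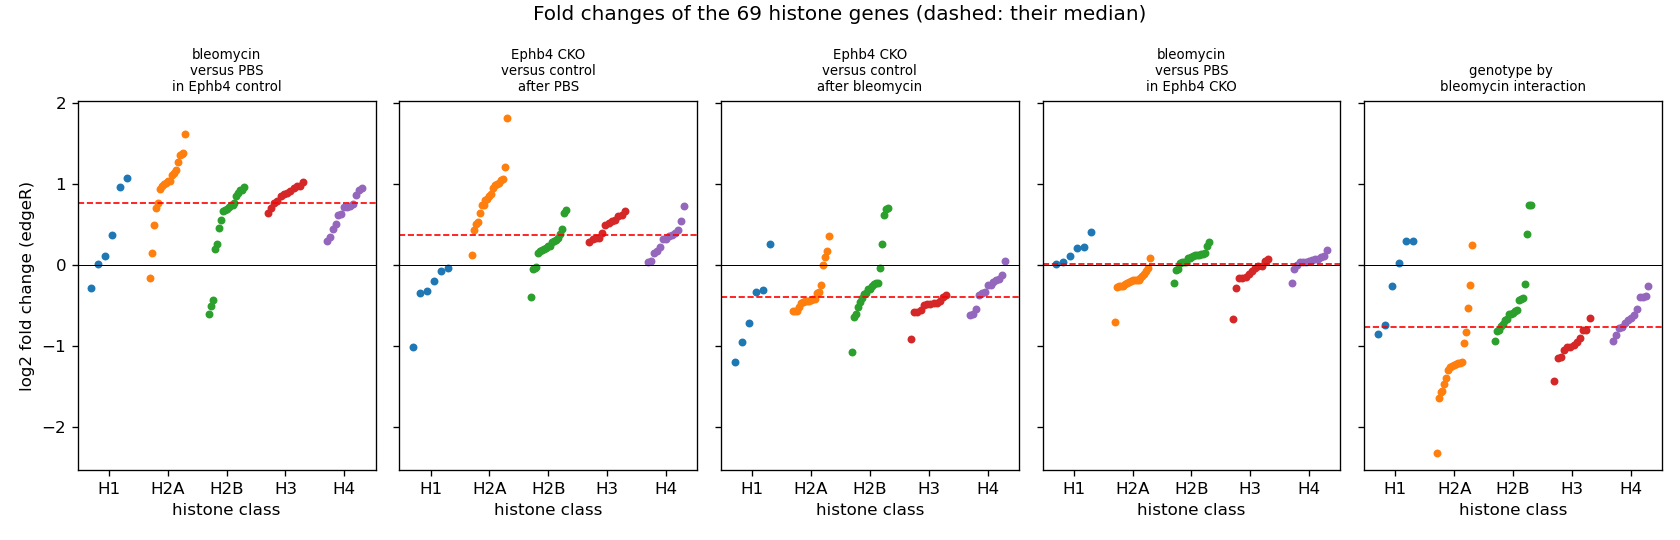
Log2 fold changes (edgeR) of the 69 histone genes in the 4 comparisons of groups and in the interaction, by class, 1 point per gene, with the median of the 69 as a dashed line at 0.77, 0.37, -0.40, 0.01 and -0.77. No point passed the adjusted threshold, and the H2A genes reach the highest values in both comparisons against Ephb4 control PBS. The highest point in each of these (1.62 and 1.81) is Hist2h2aa1, whose split from Hist2h2aa2 is uncertain.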

How the data were processed

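Lung fibroblast total RNA of 17 mice was sequenced as stranded, paired 75-base reads after depletion of ribosomal RNA. The deposited values are whole-number counts per gene, which the authors made by trimming with Cutadapt (version 1.18 in the submitters' processing notes), alignment to GRCm38 with HISAT2 2.1.0 and StringTie with its script for counts, so they derive from coverage and depend on how reads shared by near-identical genes were divided. Each of the 17 columns matched 1 sample by title, and libraries were grouped by their labels.

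Genes with at least 10 counts in at least 2 libraries were kept (22679 of 55421). The 5 comparisons used edgeR 4.0.16 in R 4.3.3, by its quasi-likelihood test with TMM library sizes. All 17 libraries entered 1 model with a mean for each group and without covariates, and p-values were adjusted by Benjamini-Hochberg at 0.05. The SE was the fold change over the square root of its F statistic. Log2 CPM used a prior count of 2. Each group is made of separate mice, each culture being 1 library. The biological coefficient of variation was 0.705. The procedure was tested on simulated counts of genes drawn independently, which does not cover genes that move together, as the histone genes did.

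Planned for naming were the 3 genes of each class with the highest mean CPM. In each comparison, up to 5 genes per direction with the smallest p were planned too. Also planned were Hist1h1c, Hist1h2bc, Hist2h2be, Hist1h1t and Hist1h2ba, and 1 to 4 genes of a list by p. Of these, Hist1h3f (mean 31.4 CPM), Hist1h3e (24.3 CPM) and Hist1h4c (36.7 CPM) are given only here. The fourth comparison and the interaction name no gene by p. Hist1h1a and Hist2h2bb in the third comparison were taken by fold change. Hist1h1a, Hist1h1b, Hist1h2bb, Hist1h3b, Hist1h4h, Hist3h2a and others given for their span, loop, motif, shared sequence or correlation were chosen after their values were seen. The genes and lists were chosen with earlier results of these data known. Exon lengths, loops and shared stretches come from GENCODE M21, promoters from RefSeq.

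Alternatives were DESeq2 1.42.0, limma 3.58.1 voom, RLE size factors, CPM over 10 in 2 libraries, no filter, number series or run of columns as covariate, scaling without 5 abundant noncoding genes (16.8% to 33.7% of counts), 3 libraries left out for their sex genes, and each library left out.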

Additional observations from a re-analysis of the deposited data

Results flagged for a closer look

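Within each group, the highest or lowest library was compared with its neighbours on the log2 scale, for 24 quantities in 4 groups. The measure was the gap relative to the whole range (Dixon's 95% limit), while the levels below are given in CPM. Chance alone gives about 1 in 20, and 7 of 96 stood out. They are not independent, since the genes move together.

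In Ephb4 CKO PBS 3, Hist1h1e lay at 202 CPM against 31.0 to 45.8 CPM in the other 4 libraries of the group. The summed H1 genes lay there at 762 CPM against 172 to 204 CPM, and the summed H2B genes at 971 CPM against 169.5 to 272 CPM. In Ephb4 CKO bleomycin 3, Hist1h3b lay at 49.6 CPM against 8.10 to 8.49 CPM in the other 3 libraries, and the summed H3 genes at 418 CPM against 68.1 to 89.6 CPM. In Ephb4 control PBS 4, the testis gene Hist1h2ba lay at 0.343 CPM against 0.832 to 0.912 CPM, and the summed H2A genes at 68.5 CPM against 108 to 117 CPM. No interaction of genotype and bleomycin passed the adjusted threshold for any histone gene.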

How the results depend on the processing

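None of the 69 histone genes passed the adjusted threshold in any of the 5 comparisons under any of the 26 alternatives, including DESeq2, limma voom and each library left out. DESeq2 called 262, 13, 431, 12 and 17 genes of all tested in the 5 comparisons, in the order of the report, where edgeR called 0, and limma voom called 1 gene in the first and 1 in the third. At an unadjusted p under 0.05, number series as a covariate raised the histone count in the first comparison from 0 to 36 and in the third from 1 to 5, and leaving out Ephb4 CKO bleomycin replicate 3 raised the third to 7. The cause was not tested.

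The median log2 fold change of the histone genes moved with single libraries. Leaving out each library in turn gave 0.48 to 0.95 in the first comparison, -0.67 to 0.65 in the second, -1.35 to -0.09 in the third, -0.98 to 1.09 for bleomycin in Ephb4 CKO mice and -1.74 to 0.34 for the interaction. The lowest and highest values of the fourth came without Ephb4 CKO bleomycin 3 and without Ephb4 CKO PBS 3. The second median was -0.10 with limma voom, the third rose to 0.04 without the 3 libraries whose sex genes go against the label, and the fourth 0.58 without them. Hist1h2bc in the second comparison stayed at 0.56 to 0.81 and Hist2h2be in the third at 0.57 to 0.87 over all alternatives.

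The r of the histone mean with the S phase genes was 0.62 on the summed CPM scale and 0.67 to 0.82 with each library left out, lowest without Ephb4 CKO PBS 1. Mean summed CPM (1395) was 1238 to 1474 with each library left out and 1785 with scaling free of abundant noncoding RNA. No paired analysis was possible because the replicate numbers follow accession order and pair no mice. The mouse numbers recur in 2 pairs of libraries, each across different groups, and the labels do not say that a number marks a shared litter, batch or day. At these depths the spread between the libraries of a group, and not counting, limits the comparisons. The parts of mouse, culture and batch in that spread were not tested.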
